A study of Brassica napus with 6 samples.

Results

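Dehydrins and the other stress proteins named here are hydrophilic proteins that plants accumulate when cells lose water, freeze or receive abscisic acid (ABA). The genes described here are those of Brassica napus whose best Arabidopsis match, as the deposited table gives it, is ERD10 (AT1G20450), ERD14 (AT1G76180), COR47, RAB18 (AT5G66400), XERO1 (AT3G50980), LTI30, HIRD11 (AT1G54410), RD29A, RD29B (AT5G52300) or COR15A. Of these 10 Arabidopsis genes, 6 had at least 1 copy in the table, 23 genes in all out of 145279. COR47, LTI30, RD29A and COR15A had no copy assigned to them and were not analysed here, so what the set holds is dehydrins (ERD10, ERD14, HIRD11, RAB18 and XERO1) and RD29B. The genes were chosen by name with their TPM difference between the hairy and glabrous leaves in view. Differences of its members between the lines are therefore given as a description, with standard errors and without p-values.

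As background, dehydrins carry repeats of a lysine-rich segment and protect membranes and enzymes during dehydration. In Arabidopsis, ERD10 and ERD14 are acidic dehydrins induced early in drought and cold, HIRD11 is a histidine-rich dehydrin that binds metals, and RD29B is a hydrophilic protein whose promoter answers to ABA. The CBF and DREB transcription factors drive many such genes in the cold and in drought, while the ABA branch runs through PYL receptors, PP2C phosphatases, SnRK2 kinases and ABF factors.

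Poly-A RNA came from single, very young leaves, each the third leaf of its plant, of doubled haploid lines that are near-isogenic and descend from Quantum/LG3260 and CN113136. DH6-47 is the hairy line and DH6-110 the glabrous one. Both were grown without a stress treatment named in the labels, at 16 h light and 8 h dark, 20 to 22 °C and 75% relative humidity. Replicates 1 and 3 of each line have values, which sets 2 hairy leaves against 2 glabrous leaves, and the replicate 2 leaves were not analysed here. Levels are TPM, the share of transcripts scaled to a common total after correction for transcript length, and the depth behind them is unknown. No label says whether the plants were raised together or apart, so all errors measure only the spread between these leaves. Summed TPM of 4 mesophyll genes was 2747 to 3327 in hairy leaves and 4584 to 6576 in glabrous leaves, and that of 3 trichome genes was 17.1 to 17.8 TPM in hairy and 3.33 to 3.72 TPM in glabrous leaves. RBCS1A, a Rubisco subunit, was listed at 0 in all leaves but glabrous 1, at 2.03 TPM. Guard cell genes, which include ICE2 of the regulator list below, summed to 56.6 to 74.3 TPM in hairy and 48.3 to 116 TPM in glabrous leaves, and vascular genes to 34.2 to 47.8 TPM in hairy and 47.9 to 122 TPM in glabrous leaves. The 2 root genes stayed at or below 0.16 TPM. The 3 seed genes summed to 6.32 and 11.4 TPM in hairy leaves against 1.35 and 1.86 TPM in glabrous leaves, almost all of it from SESA1, with CRC listed at 0. The part of these markers in the results below was not tested. In whole leaves, fewer cells of a type and less RNA per cell cannot be told apart.

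Nearly all of the signal came from ERD10, ERD14, RD29B and HIRD11. Of the 23 copies, 14 reached 1 TPM in at least 2 leaves and were tested, 5 were listed at 0 in every leaf, and the other 4 stayed at or below 1.20 TPM. The single RAB18 copy and both XERO1 copies were at 0 in all 4 leaves, as was the A03 copy of HIRD11. Summed over all 23 copies, the level was 1969 TPM in hairy 1 and 4254 TPM in hairy 3, against 584 TPM in glabrous 1 and 722 TPM in glabrous 3. That was 0.205% and 0.445% of all TPM in the hairy leaves, and 0.061% and 0.075% in the glabrous leaves.

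ERD10, ERD14 and RD29B were higher in both hairy leaves than in either glabrous leaf. ERD10 summed to 705 TPM in hairy 1 and 1960 TPM in hairy 3, against 156 TPM in glabrous 1 and 194 TPM in glabrous 3. The means were 1333 ± 887 TPM in hairy and 175 ± 26.7 TPM in glabrous leaves (SD, n = 2 each), a ratio of 7.60, and the lower hairy leaf was still 3.63 times the higher glabrous one. Among the 21466 Arabidopsis-matched sums, ERD10 ranked 170 and 53 in hairy leaves and 933 and 744 in glabrous leaves.

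ERD14 summed to 666 TPM in hairy 1 and 1475 TPM in hairy 3, against 219 TPM in glabrous 1 and 343 TPM in glabrous 3. The means were 1071 ± 573 TPM in hairy and 281 ± 87.5 TPM in glabrous leaves, a ratio of 3.81, and the lower hairy leaf was 1.94 times the higher glabrous one. ERD14 was thus the dehydrin with the highest level in glabrous leaves, above ERD10 in both, while in hairy leaves ERD10 was above ERD14 in both.

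RD29B summed to 524 TPM in hairy 1 and 644 TPM in hairy 3, against 88.1 TPM in glabrous 1 and 95.6 TPM in glabrous 3. Its means were 584 ± 84.8 TPM in hairy and 91.8 ± 5.24 TPM in glabrous leaves, a ratio of 6.36. Leaves of the same line lay close together, and the lower hairy leaf was 5.49 times the higher glabrous one.

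HIRD11, in contrast, overlapped between the lines. It read 74.4 TPM in hairy 1 and 174 TPM in hairy 3, against 120 TPM in glabrous 1 and 88.8 TPM in glabrous 3. The log2 change was 0.14 with an SE of 0.42 on the log2(TPM + 1) scale, and its direction turned without hairy 3 (-0.47) or without glabrous 3 (-0.08). All of this level came from another transcript model of the C03 gene that carries no Arabidopsis code of its own but whose best sequence hit is a HIRD11 dehydrin.

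**Figure D1:**
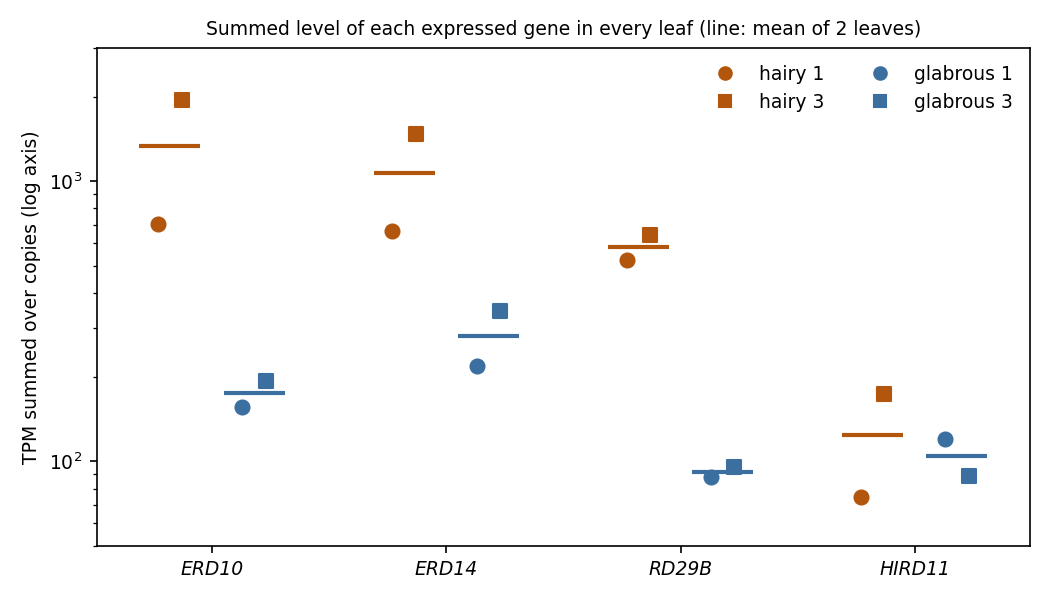
Summed TPM over all copies of each expressed gene (vertical log axis) in the 2 hairy leaves (orange) and 2 glabrous leaves (blue), with circles for replicate 1, squares for replicate 3 and a line at the mean. ERD10, ERD14 and RD29B do not overlap between the lines, hairy 3 is far above hairy 1 for ERD10, ERD14 and HIRD11, and the 2 leaves of each line nearly coincide for RD29B.

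Copy by copy, 11 of the 14 tested copies passed the threshold as higher in the hairy line and 1 as lower, by limma on log2(TPM + 1) with a Benjamini-Hochberg adjusted p under 0.05 over all 44247 tested genes. Of all tested genes 5.24% were called higher, 4.48% lower and 9.72% in either direction. Because this contrast was in view when the genes were proposed, nothing is read from that excess. The median log2 change was 2.10 over the tested copies and 0.03 over all tested genes. In 12 of the 14 copies the lines did not overlap, as in 38.8% of all tested genes. As sums over copies, ERD10, ERD14 and RD29B passed as higher, where 1.81% of 15765 tested sums did; 0.266% passed as lower and 2.08% in either direction.

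Much of this count was lost when certain single leaves were left out. Such a fit has 1 leaf in 1 line, and fewer of all tested genes were called higher too. Only without glabrous 3 did that number hardly change. Without hairy 3 or without glabrous 1, only RD29B copies were still called higher. Fewer copies were also called without hairy 1, while the number was unchanged without glabrous 3. The median log2 change over the copies tested in each fit ranged from 1.35 without hairy 3 to 2.56 without hairy 1, beside 2.10 with all leaves. The ERD14 sum was no longer called in 8 of 12 alternative settings and the ERD10 sum in 2, TMM-like scaling and leaving out hairy 3 among them for both, while the RD29B sum was called in all 12.

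Among the ERD10 copies, the abundant A-subgenome copies had larger changes between the lines than the C-subgenome copies, a contrast between copies that was not tested. The A06 copy (BnaA06g017770.4DH) read 201 and 531 TPM in hairy leaves and 24.4 and 42.7 TPM in glabrous leaves, a log2 change of 3.30 (SE 0.50). The A07 copy (BnaA07g021760.4DH) read 221 and 656 TPM in hairy against 38.6 and 44.3 TPM in glabrous leaves, with 3.17 (SE 0.50). Both ran about 10-fold higher in the hairy line, with ratios of mean TPM of 10.9 and 10.6.

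The C05 copy (BnaC05g022170.4DH), the most abundant ERD10 gene, read 258 and 698 TPM in hairy leaves against 84.6 and 95.3 TPM in glabrous leaves. Its log2 change was 2.23 (SE 0.49), and the ratio of mean TPM was 5.31. The C07 copy (BnaC07g035250.4DH) read 25.8 and 72.0 TPM in hairy against 8.58 and 10.6 TPM in glabrous leaves, with a log2 change of 2.07 (SE 0.48) and a ratio of 5.09. A second A07 gene (BnaA07g021860.4DH), whose best hit is a cold-regulated COR25 transcript, was barely expressed, at 0 and 3.10 TPM in hairy leaves and 0.12 and 1.27 TPM in glabrous leaves, and did not pass (0.34, SE 0.60).

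The A copies accordingly supplied 59.8% and 60.7% of ERD10 TPM in hairy leaves, against 40.4% and 45.5% in glabrous leaves. The shares did not overlap between the lines, and they were nearly the same in both hairy leaves although the total differed 2.78-fold between them. The A06 and C05 copies lie among like genes: of the nearest 20 annotated genes around each, 9 Arabidopsis matches are shared. Within that pair the C05 copy held 56.2% and 56.8% in hairy leaves and 77.6% and 69.0% in glabrous leaves. None of the 20 tested neighbours of either copy was called in either direction.

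**Figure D2:**
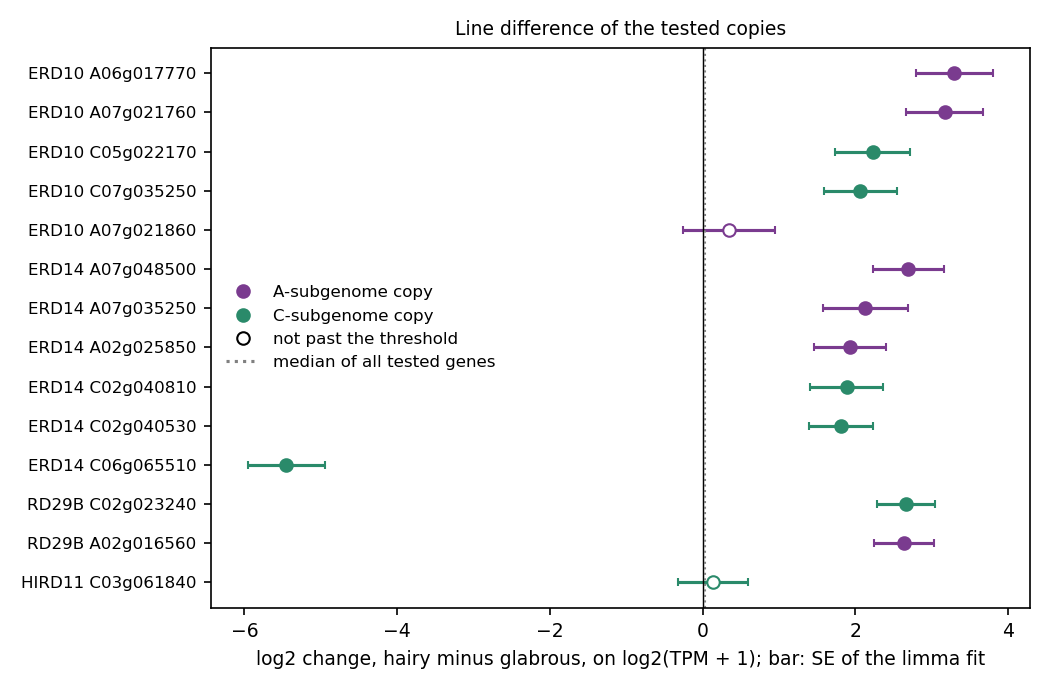
Log2 change of each of the 14 tested copies, hairy minus glabrous on the log2(TPM + 1) scale, with bars for the SE of the limma fit; A-subgenome copies are purple, C-subgenome copies green, open symbols did not pass the threshold, and the dotted line is the median of all tested genes. Of the copies, 11 lie between 1.81 and 3.30, the C06 copy of ERD14 lies at -5.45, and the open symbols are HIRD11 and the weak A07 copy of ERD10.

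The 6 ERD14 copies went both ways. The largest, on A07 (BnaA07g048500.4DH), read 294 and 666 TPM in hairy leaves and 58.4 and 77.9 TPM in glabrous leaves, a log2 change of 2.70 (SE 0.47). The C06 copy (BnaC06g065510.4DH) ran the other way, at 1.02 and 0.09 TPM in hairy leaves and 47.4 and 85.9 TPM in glabrous leaves, a log2 change of -5.45 (SE 0.50). It was the only tested copy of the set that was lower in the hairy line, at or below 1.02 TPM in both leaves. Hairy 1 alone did not meet the filter of 1 TPM in 2 leaves for this copy. It passed through the glabrous leaves, where it was high, so the filter favoured a difference.

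The C06 copy and the A07 copy are counterparts by position, since the nearest 20 annotated genes around each share 17 Arabidopsis matches. Around the C06 copy, all 20 neighbouring tested genes were called lower in the hairy line, with log2 changes between -6.53 and -1.85, and 18 of them were below 1 TPM in both hairy leaves. Around the A07 copy, all 20 neighbours had positive changes, between 0.37 and 2.15 with a median of 0.84, and 2 were called higher. The change of the A07 ERD14 copy, 2.70, was above that of every one of these neighbours. Taken as a pair, the A07 and C06 copies gave 295 and 666 TPM in hairy leaves against 106 and 164 TPM in glabrous leaves, a ratio of means of 3.57. The C06 copy held 0.35% and 0.01% of the pair in hairy leaves and 44.8% and 52.4% in glabrous leaves.

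**Figure D3:**
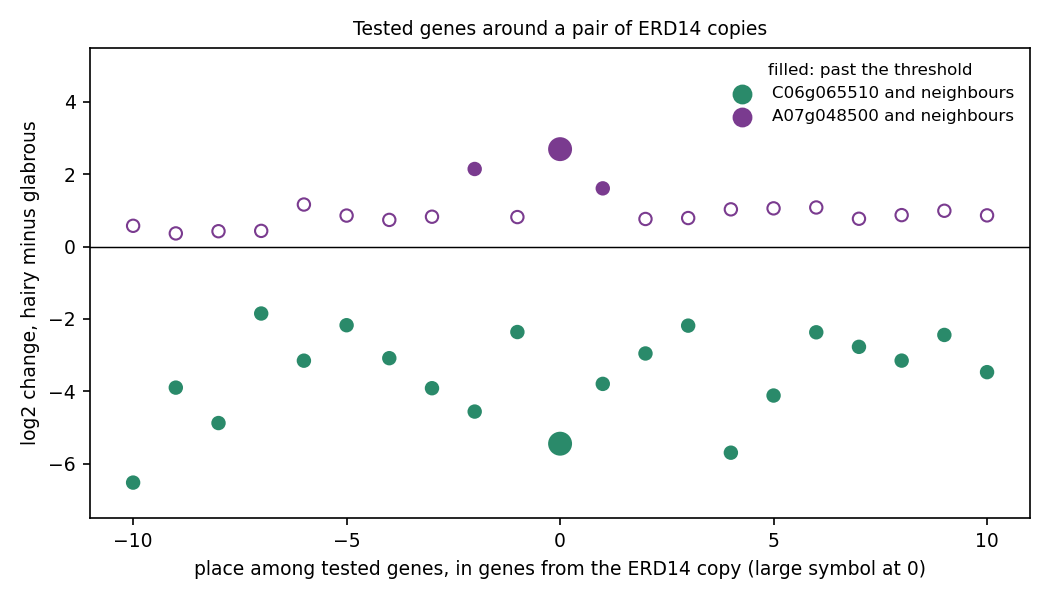
Log2 change, hairy minus glabrous, of the C06 copy of ERD14 and its 10 tested neighbours on each side (green) and of its A07 counterpart and neighbours (purple), by place in identifier order; large symbols are the ERD14 copies and filled symbols passed the threshold. All green genes lie at or below -1.85 and all purple genes lie above 0.

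The other 4 ERD14 copies were higher in the hairy line by similar amounts. The A02 copy (BnaA02g025850.4DH) read 165 and 393 TPM in hairy against 55.7 and 77.9 TPM in glabrous leaves, with a log2 change of 1.94 (SE 0.47). A C02 copy (BnaC02g040810.4DH) read 152 and 336 TPM in hairy against 45.4 and 80.3 TPM in glabrous leaves (1.89, SE 0.48). A second C02 copy (BnaC02g040530.4DH) with the same best sequence hit read 29.2 and 56.8 TPM in hairy against 10.3 and 11.5 TPM in glabrous leaves (1.81, SE 0.41), so reads of these C02 copies may be placed on either. The second A07 copy (BnaA07g035250.4DH) read 23.9 and 23.9 TPM in hairy against 2.07 and 9.48 TPM in glabrous leaves (2.13, SE 0.55).

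These 4 copies together gave 371 and 809 TPM in hairy leaves against 113 and 179 TPM in glabrous leaves, a ratio of means of 4.03. Their A-subgenome share was 51.1% and 51.5% in hairy leaves and 50.9% and 48.8% in glabrous leaves. Over all 6 copies, the A share was 73.0 ± 0.56% in hairy and 50.6 ± 3.38% in glabrous leaves (SD, n = 2 each), and leaving out the A07 and C06 pair brought the shares of the lines together.

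Both expressed RD29B copies, 1 in each subgenome, were higher in the hairy line. The A02 copy (BnaA02g016560.4DH) read 320 and 400 TPM in hairy leaves and 55.4 and 57.9 TPM in glabrous leaves, a log2 change of 2.64 (SE 0.39). The C02 copy (BnaC02g023240.4DH) read 203 and 243 TPM in hairy against 32.7 and 35.8 TPM in glabrous leaves, with 2.67 (SE 0.38). Their surroundings share 6 Arabidopsis matches, and the C02 copy held 38.8% and 37.8% of the pair in hairy leaves and 37.2% and 38.2% in glabrous leaves. A ratio between the copies that stayed within about 2 percentage points in all 4 leaves sets RD29B apart from the ERD10 pair in these values, although that difference between genes was not tested. The other 5 RD29B copies were below the filter. One of them (BnaA02g016570.4DH) lies directly beside the A02 copy in identifier order and read 0.20 and 0.19 TPM in hairy leaves and 0 and 1.20 TPM in glabrous leaves.

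**Figure D4:**
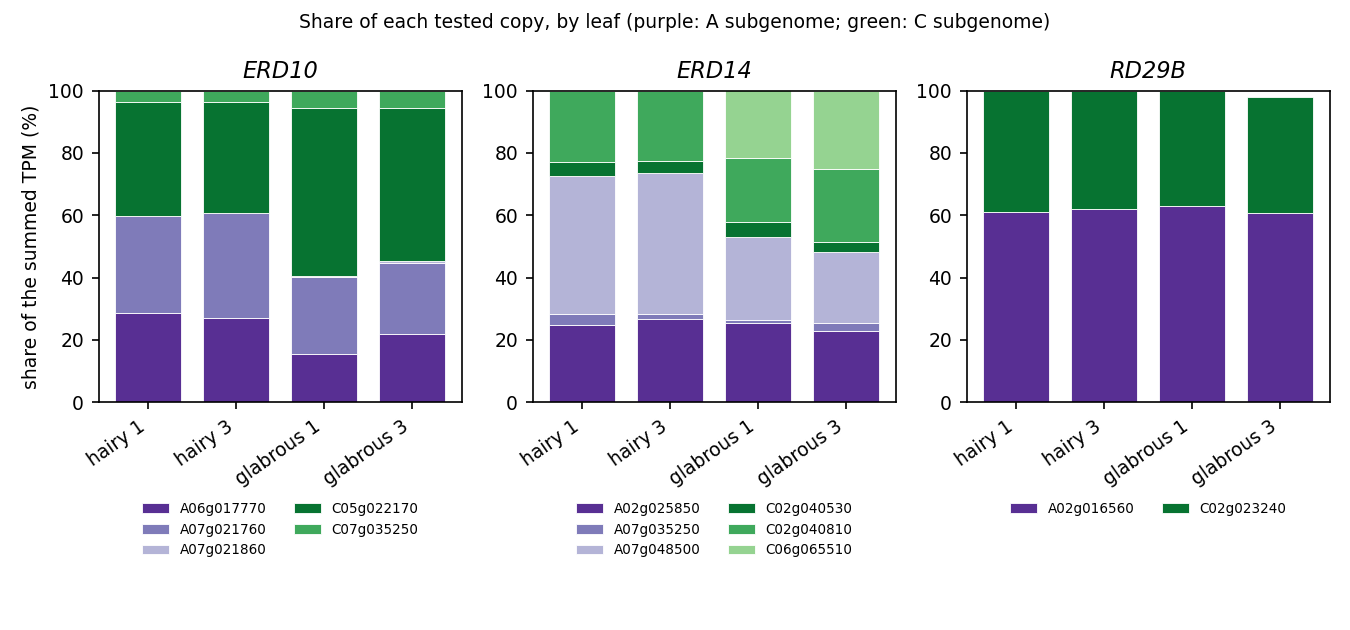
Share of the summed TPM (percent, vertical axis) held by each tested copy of ERD10, ERD14 and RD29B in the 2 hairy and 2 glabrous leaves, with A-subgenome copies in purple and C-subgenome copies in green. The A share of ERD10 is near 60% in hairy leaves and 40.4% to 45.5% in glabrous leaves, the C06 copy of ERD14 is visible only in glabrous leaves, and the RD29B shares are nearly level.

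Many of the copies also differed between the leaves of the hairy line. The genes were chosen with the hairy values in view, so these values and their place among all genes are a description only. Between hairy 1 and hairy 3, ERD10 differed 2.78-fold, ERD14 2.22-fold and HIRD11 2.34-fold, all higher in hairy 3, whereas RD29B differed 1.23-fold. Most genes ran the other way, since only 30.1% of tested genes were higher in hairy 3. Ranks given next are by signed change, hairy 3 minus hairy 1, so genes that fell by as much count as below. The 4 called ERD10 copies changed by 1.40 to 1.57 on the log2 scale, above at least 99.5% of tested genes. Of the 5 ERD14 copies higher in the hairy line, 4 changed by 0.94 to 1.24, above at least 98.1% of tested genes. The A07 copy BnaA07g035250.4DH changed by 0.00. The C06 copy went the other way, by -0.89, with 11.1% of tested genes below it. The HIRD11 copy, with 1.22, exceeded 99.2% of tested genes. RD29B copies, with 0.32 and 0.26, exceeded 86.0% and 83.5%. Without regard to sign, the median difference between the hairy leaves over all tested genes was 0.41, above both RD29B values.

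In the glabrous line the spread was smaller for most of these copies. Of tested genes 70.9% were higher in glabrous 3 than in glabrous 1. The ERD10 sum was 1.24-fold and the ERD14 sum 1.56-fold higher in glabrous 3, the RD29B sum 1.08-fold higher, and HIRD11 stood at 0.74 of its glabrous 1 level. These within-line values compare 1 leaf with 1 leaf, so no test is possible.

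Genes that act around the dehydrins were taken from 4 lists of regulators, ABA genes, other cold or ABA targets and other late embryogenesis abundant (LEA) proteins. Of 160 tested copies in these lists, 30 passed as higher in hairy leaves and 4 as lower, which is 18.8% and 2.5%, beside 5.24% and 4.48% of all tested genes. The median log2 change was 0.31. These lists were drawn up with earlier results of these leaves known, so neither the counts nor the adjusted p-values that follow are independent evidence. Copies below 1 TPM in both leaves of 1 line entered the test only through the other line, so the filter favoured a difference. Of the copies named below, these are the C01 and C03 copies of MYB15, the C09 copy of CBF4 and the C02 copy of ZAT12. The C05 and A01 copies of PP2CA, the C06 copy of HAB1 and the C03 and A03 copies of SAG21 are further cases. Some copies that are only counted below also entered through the hairy leaves alone. They include BnaA07g014830.4DH and BnaS00006g0200.4DH of MYB15, both called copies of DREB2A and the C07 copy of ERD7. The 30 higher copies became 10 without hairy 3 and 14 without hairy 1, and the 4 lower copies became 1 without hairy 1 or without hairy 3, 9 without glabrous 1 and 2 without glabrous 3. A copy or sum that missed the threshold is not shown to be alike in the lines, since the median SE over all tested genes was 0.46.

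Among the CBF and DREB regulators and their upstream factors, 14 of 53 tested copies were higher and 1 lower, with a median log2 change of 0.76. The 14 became 5 without hairy 3 and 6 without hairy 1 or without glabrous 1, and the 1 lower copy was lost without hairy 1, hairy 3 or glabrous 3. All 5 tested copies of MYB15, of 7 in the table, a MYB factor described in Arabidopsis as a repressor of CBF genes, were higher, and so were 2 of 7 tested copies of the zinc finger gene ZAT12, 2 of 5 of ZAT10, 2 of 6 of DDF1, 2 of 5 of DREB2A and 1 of 2 of CBF4. MYB15 summed to 102 and 113 TPM in hairy leaves against 2.24 and 7.89 TPM in glabrous leaves (limma adjusted p = 6.30e-04, log2 change 4.33). Its C01 copy (BnaC01g056010.4DH) read 39.1 and 48.4 TPM in hairy against 0.33 and 0.86 TPM in glabrous leaves (limma adjusted p = 4.94e-05), and its C03 copy (BnaC03g059690.4DH) 19.6 and 26.6 TPM in hairy against 0.58 and 0.85 TPM in glabrous leaves (limma adjusted p = 2.63e-04).

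The C09 copy of CBF4 (BnaC09g053870.4DH), a CBF relative tied in Arabidopsis to drought and ABA, read 24.9 and 31.8 TPM in hairy leaves against 0.32 and 0.23 TPM in glabrous leaves (limma adjusted p = 8.40e-05). The CBF4 sum had a log2 change of 1.83 (limma adjusted p = 0.0372). The C02 copy of ZAT12 (BnaC02g013500.4DH) read 7.58 and 8.52 TPM in hairy leaves, while both glabrous leaves list it at 0 (limma adjusted p = 5.49e-04), and 9 of its 20 neighbours were called higher too. The ZAT12 sum did not pass, with a log2 change of 0.58 (SE 0.41). The sums of ZAT10 (1.26, SE 0.44), DDF1 (1.26, SE 0.38) and DREB2A (-0.25, SE 0.70) did not pass either. DREB2A overlapped between the lines, with sums of 23.0 and 17.2 TPM in hairy leaves against 8.26 and 65.3 TPM in glabrous leaves.

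Of the cold-induced CBF genes themselves, CBF1 and CBF2 did not pass, and CBF3 had no copy assigned to it and could not be examined. CBF1 summed to 16.2 and 18.9 TPM in hairy leaves against 6.32 and 23.3 TPM in glabrous leaves, and CBF2 to 37.9 and 31.4 TPM in hairy against 21.5 and 45.5 TPM in glabrous leaves. Neither gene separated the lines, and no copy of CBF1 (2 tested) or CBF2 (3 tested) was called. ICE1, which activates CBF genes in the cold, had 6 tested copies and no call.

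Of 66 tested copies of ABA genes, 8 were higher and 2 lower, with a median log2 change of 0.01. The 8 became 2 without hairy 3 and 3 without hairy 1, and the 2 lower became 1 without hairy 1 or without hairy 3 and 4 without glabrous 1. The higher copies were mainly those of ABA catabolism, with 4 of 5 tested copies of CYP707A3 and 2 of 2 of CYP707A1, which encode enzymes that break down ABA. CYP707A3 summed to 396 and 277 TPM in hairy leaves against 52.7 and 88.8 TPM in glabrous leaves (limma adjusted p = 0.00484, log2 change 2.26), and CYP707A1 to 67.3 and 64.2 TPM in hairy against 22.2 and 9.03 TPM in glabrous leaves (limma adjusted p = 0.0291, log2 change 2.13). The A09 copy of CYP707A3 (BnaA09g022920.4DH) had the largest change of these, at 87.7 and 53.6 TPM in hairy against 5.66 and 7.97 TPM in glabrous leaves (limma adjusted p = 2.88e-04). For ABA synthesis, none of the 5 tested copies of NCED3, the rate-limiting dioxygenase, was called.

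The PP2C phosphatases, repressors of ABA signalling that ABA itself induces, had calls only at copies whose surroundings moved with them. The C05 copy of PP2CA (BnaC05g075340.4DH) read 0.56 and 0.10 TPM in hairy leaves against 29.0 and 155 TPM in glabrous leaves (limma adjusted p = 1.71e-04), and 18 of its 20 neighbours were called lower. The A01 copy of PP2CA (BnaA01g060570.4DH) read 5.27 and 6.28 TPM in hairy leaves, while both glabrous leaves list it at 0 (limma adjusted p = 0.00110). Its call was lost without hairy 3, and all 20 neighbours were called higher with all leaves. The C06 copy of HAB1 (BnaC06g062140.4DH) read 0.15 and 0 TPM in hairy against 5.86 and 25.8 TPM in glabrous leaves (limma adjusted p = 0.00191), a call lost without hairy 1 or without hairy 3, and 19 of its 20 neighbours were called lower. The sums of PP2CA and HAB1 did not pass, with log2 changes of -0.59 and -0.62, and both turned positive without glabrous 3 (0.62 and 0.41).

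The sums of some genes of these lists differed widely between the glabrous leaves, where 70.9% of all tested genes were higher in glabrous 3. PP2CA summed to 108 and 82.7 TPM in hairy leaves, against 61.3 TPM in glabrous 1 and 330.3 TPM in glabrous 3. ABI1, another PP2C, summed to 41.5 and 27.1 TPM in hairy leaves, against 16.5 TPM in glabrous 1 and 145 TPM in glabrous 3. P5CS1, an enzyme of proline synthesis, summed to 46.3 and 22.1 TPM in hairy leaves, against 23.5 TPM in glabrous 1 and 241 TPM in glabrous 3. RD29B did not share this pattern, at 88.1 TPM in glabrous 1 and 95.6 TPM in glabrous 3. Other sums were lower in glabrous 3, among them PYL4, an ABA receptor gene, at 88.5 and 127 TPM in hairy leaves against 63.4 TPM in glabrous 1 and 10.9 TPM in glabrous 3. The ABI1, P5CS1 and PYL4 values were picked after they had been seen.

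Of 37 tested copies of other cold or ABA targets, 5 were higher and 1 lower, with a median log2 change of 0.33. The 5 became 2 without hairy 1 or without hairy 3 and 3 without glabrous 1, and the 1 lower became 4 without glabrous 1 and 0 without any other leaf. All 4 copies of ERD7, an early dehydration gene, were higher, and the sum was 192 and 201 TPM in hairy leaves against 23.0 and 53.6 TPM in glabrous leaves (limma adjusted p = 0.00499, log2 change 2.45). The A07 copy (BnaA07g003480.4DH) read 29.4 and 19.9 TPM in hairy against 0.98 and 1.44 TPM in glabrous leaves (limma adjusted p = 4.35e-04), and the C03 copy (BnaC03g066500.4DH) 86.3 and 84.1 TPM in hairy against 9.17 and 16.9 TPM in glabrous leaves (limma adjusted p = 7.17e-04). ADH1, alcohol dehydrogenase, summed to 101 and 100.4 TPM in hairy against 25.8 and 27.9 TPM in glabrous leaves (limma adjusted p = 0.0149). Most of it came from the A07 copy (BnaA07g049350.4DH), at 100.1 and 99.1 TPM in hairy against 21.3 and 23.4 TPM in glabrous leaves (limma adjusted p = 0.00187). The call of this copy was lost without hairy 1 or hairy 3. Its 20 tested neighbours had a median log2 change of 0.69, and 2 of them were called higher. The other tested ADH1 copy (BnaS00025g0170.4DH) ran the other way and did not pass. It read 0.58 and 1.29 TPM in hairy against 4.50 and 4.09 TPM in glabrous leaves.

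The A03 copy of RD20 (BnaA03g019110.4DH), a caleosin, was lower, at 2.59 and 4.61 TPM in hairy against 10.4 and 28.5 TPM in glabrous leaves (limma adjusted p = 0.0329), a call lost in 6 of 12 alternative settings; the RD20 sum did not pass (-0.91, SE 0.45). COR15B, the plastid partner of COR15A, had 4 tested copies and no call, with a sum of 6.23 TPM in hairy 1 and 41.9 TPM in hairy 3 against 4.93 and 9.14 TPM in glabrous leaves. None of the 4 copies of COR413PM1, a cold-regulated membrane protein, was called either.

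Of the other dehydrins and LEA proteins, only 4 of 40 copies reached the filter, and 3 of them were higher, against 1 without hairy 3 or without glabrous 1 and 2 without glabrous 3. The C03 copy of SAG21 (BnaC03g040840.4DH), a mitochondrial LEA protein in Arabidopsis, read 38.2 and 82.1 TPM in hairy leaves against 0.11 and 0.97 TPM in glabrous leaves (limma adjusted p = 5.97e-05), and its A03 copy (BnaA03g031710.4DH) read 2.95 and 12.6 TPM in hairy against 0.55 and 0.32 TPM in glabrous leaves (limma adjusted p = 0.0216, lost in 6 of 11 settings). The SAG21 sum had a log2 change of 5.03 (limma adjusted p = 3.37e-04). The A08 copy of LEA14 (BnaA08g044170.4DH) read 12.6 and 40.2 TPM in hairy against 2.65 and 0.78 TPM in glabrous leaves (limma adjusted p = 0.00390, lost without hairy 3 or glabrous 1), and the LEA14 sum passed as well (3.21, limma adjusted p = 0.0136). Like ERD10 and ERD14, SAG21 and LEA14 stood higher in hairy 3 than in hairy 1, with SAG21 sums of 41.2 TPM in hairy 1 and 94.8 TPM in hairy 3, and LEA14 sums of 12.6 and 40.3 TPM.

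**Figure D5:**
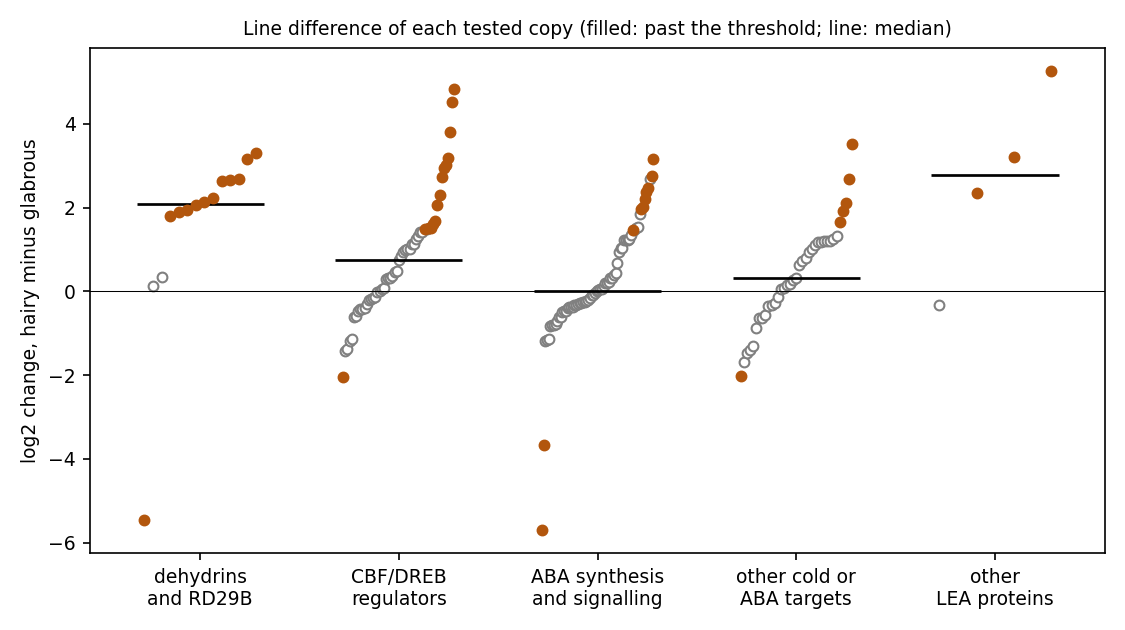
Log2 change, hairy minus glabrous on log2(TPM + 1), of every tested copy of the dehydrin and RD29B set and of the 4 lists around it; filled symbols passed the threshold and lines are medians. The medians are 2.10 for the set, 0.76 for regulators, 0.01 for ABA genes, 0.33 for other targets and 2.79 for the 4 tested LEA copies.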

How the data were processed

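Poly-A RNA was sequenced as paired ends, per the labels' protocols, and reads were trimmed with cutadapt 1.9, per the submitters' processing notes; which aligner, genome build and gene models were used is not given in the sources used here. Deposited by the authors were TPM per transcript model and leaf, with mean TPM per line, the larger mean (a deposited signal on the TPM scale), a signed fold change (score), a log2 fold change, a p-value and an adjusted p-value; these comparison columns were not used for results. TPM keep no depth, so no counting interval can be given and precision rests on 2 leaves per line.

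TPM were summed per gene; a gene took the first Arabidopsis match among its transcripts. Copies are genes sharing a match, and near-identical copies can exchange reads. Genes reaching 1 TPM in 2 or more leaves (44247), and likewise sums over copies (15765), went into limma 3.58.1 (R 4.3.3) as log2(TPM + 1), with variance trend and robust shrinkage, Benjamini-Hochberg adjustment over all tested and a threshold of 0.05. Changes near 0 TPM are understated on this scale. The fit was tested on simulated data, where it recovered most log2 changes of 4 and few or none of those of 2 or 1. Far fewer genes were changed in the simulation than were called in these leaves, which makes the adjusted threshold stricter there. How often the fit recovers such changes in these leaves therefore remains unknown. Neighbours are the 10 nearest by identifier on each side. Python 3.11.15 with pandas 2.3.3 was used.

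Members and lists were chosen with earlier results of these data known. Named with values were each member's sum, all called copies, the most abundant copy, and at most 4 called copies of largest change per list with their genes' sums; other named sums were chosen after their values were seen. Alternatives were other scalings, pseudocounts, filters and a plain variance model, each leaf left out (filter: 1 TPM in 1 leaf), and the replicate number as a block.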

Additional observations from a re-analysis of the deposited data

How the results depend on the processing

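The number of member copies called higher, 11, became 7 with no low-value filter, which tests more genes, and 1 to 11 with 1 leaf left out; 1 copy was lower in all 12 alternatives. Member sums called higher, 3, became 1 with TMM-like scaling and 1 to 3 with 1 leaf left out. Over all tested genes, 2319 higher and 1982 lower became 723 to 2314 and 641 to 1539 with 1 leaf left out, and 1251 were lower with a filter at 5 TPM. In the 4 pathway lists, 30 higher and 4 lower copies became 10 to 35 and 1 to 9 with 1 leaf left out. The A share of the summed TPM was 62.2% to 62.8% in hairy and 40.2% to 43.4% in glabrous leaves.

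Blocking on replicate number (replicate block) gave 1834 higher and 1704 lower genes, 11 member copies higher and 2 pathway copies lower; the ERD14 sum lost its call, as did 1 named pathway copy, RD20. The deviations of same-numbered leaves correlated at -0.41 across genes, so a crossed pairing was added after seeing the data, with 3921 genes higher and 3039 lower and 11 member copies higher. The median log2 change of all genes moved from 0.03 to between -0.17 and 0.24 when 1 leaf was left out.

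Of 167 results of single member copies under these alternatives, 131 kept direction and call, 32 lost the call and 4 turned. The turned values belong to copies that did not pass: the A07 ERD10 copy BnaA07g021860.4DH (-0.67 without hairy 3, -0.16 without glabrous 1; 1.36 at the other end) and HIRD11, as copy and as sum (-0.47 without hairy 3, -0.08 without glabrous 3; 0.75 at the other end). The PP2CA and HAB1 sums turned without glabrous 3 (0.62 and 0.41), against -1.79 and -1.65 without glabrous 1. The causes were not tested. With 1 leaf left out, its lone partner is assumed to vary like the other line.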

Other observations

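Genes described as dehydrins by their sequence hits but without an Arabidopsis match lie outside the set, and were looked up after the members' values had been seen. Of 8 such genes, the C06 gene BnaC06g045080.4DH, described as an ERD14 dehydrin, was the only one above 2 TPM in any leaf. It read 29.0 and 43.9 TPM in hairy leaves against 17.4 and 36.0 TPM in glabrous leaves, so the lines overlapped. Its surroundings share 11 Arabidopsis matches with those of the A07 ERD14 copy BnaA07g035250.4DH, and none of its 20 tested neighbours was called. Together the A07 and C06 genes read 52.9 and 67.8 TPM in hairy leaves against 19.4 and 45.5 TPM in glabrous leaves. The C06 gene held 54.8% and 64.7% of that pair in hairy leaves and 89.3% and 79.2% in glabrous leaves. The A copy thus held more of this pair in the hairy line, which did not hold for every pair. The RD29B shares were nearly level. The ERD14 copies BnaA02g025850.4DH and BnaC02g040530.4DH have surroundings that share 5 Arabidopsis matches. In that pair the C02 copy held 15.0% and 12.6% in hairy leaves and 15.6% and 12.9% in glabrous leaves.

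The Rab18-like descriptions cover 5 of these genes, named, after the ABA-induced RAB18 of Arabidopsis. The A09 gene BnaA09g010430.4DH and the C09 gene BnaC09g012950.4DH read 1.89 and 1.47 TPM in glabrous 3, and at most 0.11 TPM in the other 3 leaves.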
